A study of Mus musculus with 8 samples.

Results

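The 48 genes described here encode parts of the motile cilium or proteins that build it. They were chosen by name, as axonemal dyneins, radial spoke proteins, tektins, assembly factors and other motile cilia genes, and each gene was read from its brightest probe by the mean over all 8 arrays. All 48 were found among the 24306 genes on the array. They fell into 8 structural classes and a ninth set of other motile cilia genes. The rule named the genes without a measured value, while the probe of each gene was chosen by its measured mean. The members were chosen with earlier results of these data known.

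Expression was measured on 8 one-color arrays from alveolar epithelial cells type II (AECII) and type I (AECI) isolated by FACS from mouse lungs at embryonic day E18.5. Fgfr2b is the epithelial isoform of a fibroblast growth factor receptor, and the series title places its inhibition in Sftpc-expressing cells, Sftpc being a surfactant protein gene of AECII. The 4 groups were Fgfr2bflox AECII, control AECII, Fgfr2bflox AECI and control AECI, with 2 arrays each. Tamoxifen was given to pregnant females on E14.5 and E15.5. Control embryos were carried by a second set of females treated alike, and genotype and litter therefore cannot be told apart. The sources used here name neither the Cre driver, the genotype of the controls, the sort gate nor how many embryos went into a sample. The replicates are called biological without a statement that each was another animal, and the p-values cover the spread of these 8 arrays alone, which may be technical.

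A motile cilium is built on an axoneme, a ring of doublet microtubules around a central pair. Outer and inner dynein arms on the doublets pull neighboring doublets past each other, nexin links and radial spokes control the sliding, and the central apparatus sets its pattern. Dynein arms are put together in the cytoplasm by assembly factors before they enter the cilium. In the lung, such cilia are borne by multiciliated cells of the airways under the control of Foxj1 and RFX transcription factors, and alveolar epithelial cells are not known to carry them.

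Promoter windows were available for 41 of the 48 members (RefSeq, build GRCm38.p6, 250 bases before to 50 bases after each start site). The X-box, which RFX factors bind, is an inverted repeat whose half-site was searched as GTTGCC on both strands. It was present in 17 of the 41 members (41.5%) and in 14.1% of the 19217 array genes with a window. The 4 windows printed here belong to members with this half-site that were higher in AECII than in AECI in both genotypes, and they are those with the largest differences in Fgfr2bflox lungs. Capitals mark GTTGCC or its reverse complement, GGCAAC.
Fam183b, minus strand, chr11:58801911-58802210: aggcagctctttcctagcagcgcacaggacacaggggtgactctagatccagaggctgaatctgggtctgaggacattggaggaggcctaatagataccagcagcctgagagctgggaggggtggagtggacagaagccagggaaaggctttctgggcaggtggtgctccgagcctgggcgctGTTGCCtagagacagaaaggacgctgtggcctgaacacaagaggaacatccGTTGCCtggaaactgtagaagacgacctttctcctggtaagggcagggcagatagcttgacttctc
Efcab10, plus strand, chr12:33394604-33394903: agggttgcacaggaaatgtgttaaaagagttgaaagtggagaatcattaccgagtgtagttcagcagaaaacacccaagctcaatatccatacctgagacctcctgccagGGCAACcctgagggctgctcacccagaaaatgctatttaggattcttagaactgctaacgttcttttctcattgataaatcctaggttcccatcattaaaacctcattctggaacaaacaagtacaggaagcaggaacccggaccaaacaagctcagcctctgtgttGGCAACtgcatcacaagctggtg
Adgb, minus strand, chr10:10472350-10472649: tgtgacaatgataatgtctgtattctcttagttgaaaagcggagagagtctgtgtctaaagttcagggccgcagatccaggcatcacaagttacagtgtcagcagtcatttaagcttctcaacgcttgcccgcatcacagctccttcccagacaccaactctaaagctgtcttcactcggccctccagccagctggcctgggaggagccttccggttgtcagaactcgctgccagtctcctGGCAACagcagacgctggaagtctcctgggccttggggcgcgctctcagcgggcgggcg
Ccdc153, plus strand, chr9:44240427-44240726: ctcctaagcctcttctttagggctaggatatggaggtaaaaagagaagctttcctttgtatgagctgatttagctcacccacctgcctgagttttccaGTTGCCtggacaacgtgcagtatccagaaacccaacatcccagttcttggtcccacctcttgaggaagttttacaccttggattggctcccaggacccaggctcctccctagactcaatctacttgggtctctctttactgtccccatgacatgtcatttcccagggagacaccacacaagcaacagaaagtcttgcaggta

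Counted from the start site at 0, the half-site began at -67 and -16 in Fam183b, at -140 and 27 in Efcab10, at -9 in Adgb and at -152 in Ccdc153. Among members with a window, 9 of the 20 that were called in either AECII against AECI comparison held it, and 8 of the 21 that were called in neither. A longer X-box pattern, GTNNCC and its reverse complement GGNNAC with 2 bases between them, was found in 5 members (Ccdc151, Rsph9, Spag6, Tekt4 and Zmynd10, 12.2%) and in 2.38% of genes. GTTGCCAT, which contains the half-site, was found in 1 member, Tekt1, and in 1.52% of genes, and the full palindrome, GTTGCCA joined to its reverse complement, in 0 members and 0.026% of genes. The forkhead patterns TGTTTAC and TGTTTGC, of the kind Foxj1 binds, stood in 2 and 5 members (4.88% and 12.2%) and in 3.64% and 5.39% of genes. The general promoter patterns CCAAT and TATAAA stood in 19 and 4 members (46.3% and 9.76%). Among the 19217 genes, 41.9% held CCAAT and 2791 held TATAAA. All patterns were searched on both strands. A match is a description of these letters and does not show that a factor binds there.

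Before the members, the labels and the arrays were checked. Of 20 AT1 cell markers, 15 were lower in AECII than in AECI in each genotype (1.27% of all genes in Fgfr2bflox and 1.53% in control lungs). All 20 AT2 cell markers read higher on both AECII arrays (28.2% of all genes in Fgfr2bflox and 23.5% in control lungs). Of these, 1 passed the threshold in Fgfr2bflox lungs (1.28% of all genes) and 9 in control lungs (1.3%). Sftpc itself read 15.45 to 15.88 on all 8 arrays, AECI included, which is near the highest value measured on these arrays. So close to the top of the scale, the readings cannot show how far Sftpc differed between AECII and AECI. Fgfr2, read on a probe whose place relative to the floxed part is unknown here, averaged 12.29 ± 0.06 in Fgfr2bflox and 12.61 ± 0.02 in control AECII (SD, n = 2 each), and 11.23 ± 0.22 in Fgfr2bflox and 11.20 ± 0.24 in control AECI. AECII control replicate 2 and AECI control replicate 1 stood apart in sex-linked transcripts: Xist read 6.53 and 3.96 there and 13.3 to 13.9 on the other 6 arrays. Results are therefore also given without these 2 arrays, a choice made after seeing the data.

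Levels are log2 normalized intensities, with a median of 5.18 and a lower quartile of 3.07 over all spots. The members spanned most of this scale: their means over the 8 arrays ran between 2.72 (Tekt3) and 12.29 (Ccdc114). Levels of different genes come from different probes and are not compared with each other. The median member level was higher in AECII than in AECI in both genotypes, as the map of all 48 members shows. In AECII, 0 members in Fgfr2bflox and 1 in control had a group mean under the lower quartile of spots, while in AECI there were 9 in Fgfr2bflox and 15 in control. For those members the size of a difference is approximate, since no detection call was used.

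**Figure D1:**
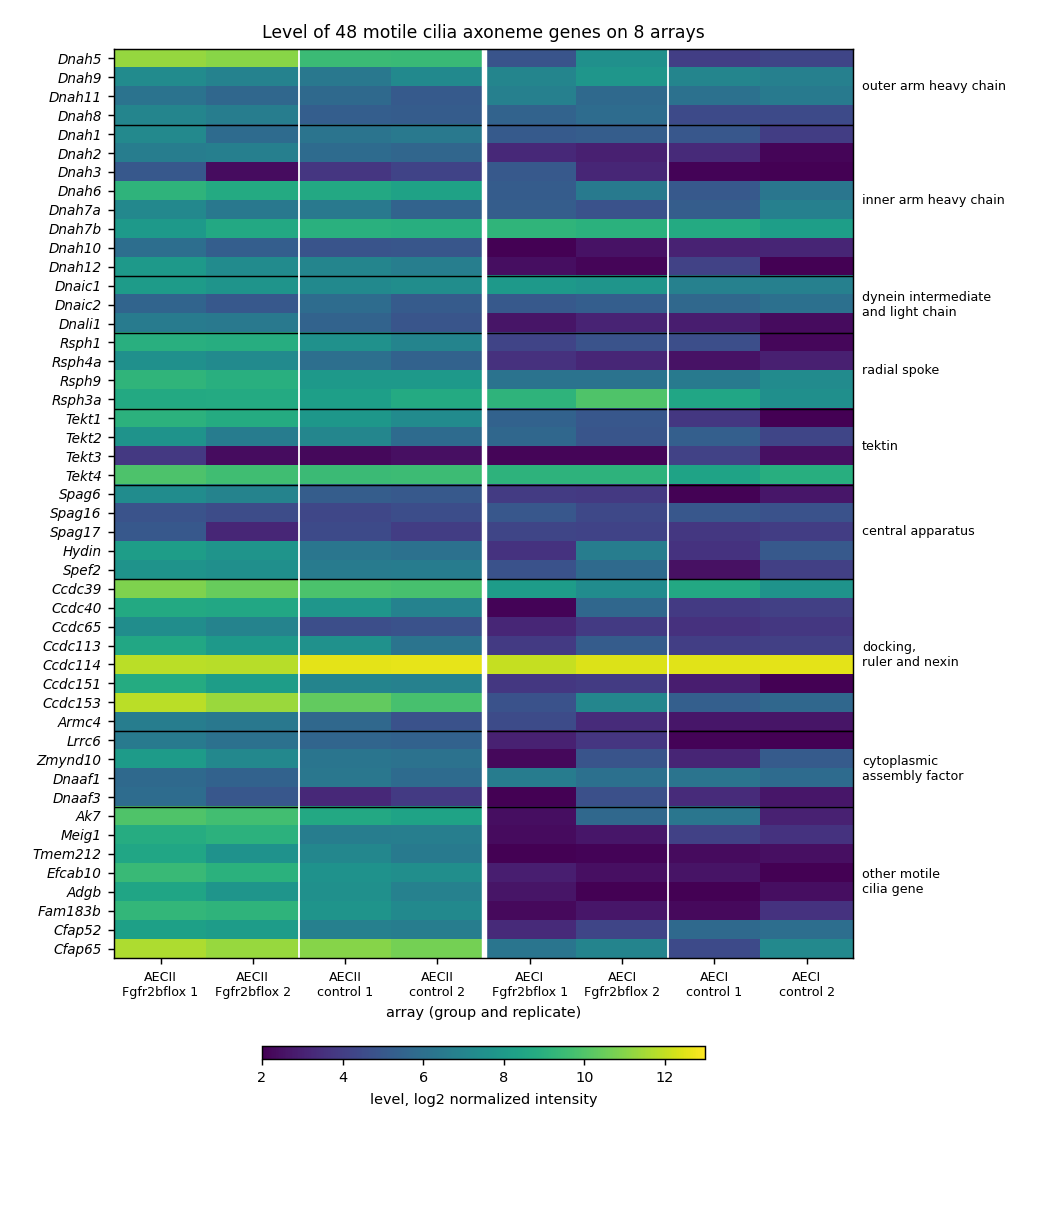
Level (log2 normalized intensity, color) of each of the 48 members (rows, by structural class) on each of the 8 arrays (columns, by group and replicate). The class of other motile cilia genes is bright on the 4 AECII arrays and dark on the 4 AECI arrays, while Ccdc114, Dnah7b, Rsph3a and Tekt4 are bright on all 8.

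The first question was which axoneme genes differed between AECII and AECI. The difference ran toward AECII: 22 of 48 members were higher in AECII than in AECI in Fgfr2bflox lungs, where 1.28% of all genes were called higher, and 16 of 48 in control lungs, where 1.3% were (limma, Benjamini-Hochberg adjusted p under 0.05 over 24306 genes). No member was called lower in either (1.27% of all genes in Fgfr2bflox and 1.53% in control lungs). Differences above 0 were found in 39 members in Fgfr2bflox (50.4% of all genes) and 42 in control lungs (50.3%). With a trend prior in the fit the counts were 29 (5.66% of all genes) and 25 (4.14%). The median member difference on the log2 scale was 3.01 in Fgfr2bflox and 1.99 in control lungs, against 0.007 and 0.005 over all genes. In bulk samples such as these, fewer cells of a type and less RNA per cell cannot be told apart. Both AECII arrays lay above both AECI arrays for 37 of 48 members in Fgfr2bflox lungs (28.2% of all genes) and for 37 in control lungs (23.5%), and all 4 AECII arrays lay above all 4 AECI arrays for 32 members (9.01% of all genes). In total 14 members were called in both genotypes, 8 in Fgfr2bflox lungs alone, 2 in control lungs alone and 24 in neither.

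These counts rest on few arrays. The Fgfr2bflox count was 0 without either AECII Fgfr2bflox array and 9 without AECI Fgfr2bflox replicate 1. The control count was 9 without either AECII Fgfr2bflox array, since all groups share one estimate of spread, and 0 without either AECII control array. Without both arrays of male pattern it was 0 in each comparison, with median differences of 3.01 in Fgfr2bflox and 2.28 in control lungs. Over all choices of 1 array left out, the median member difference stayed between 2.81 and 3.42 in Fgfr2bflox lungs and between 1.99 and 2.24 in control lungs.

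**Figure D2:**
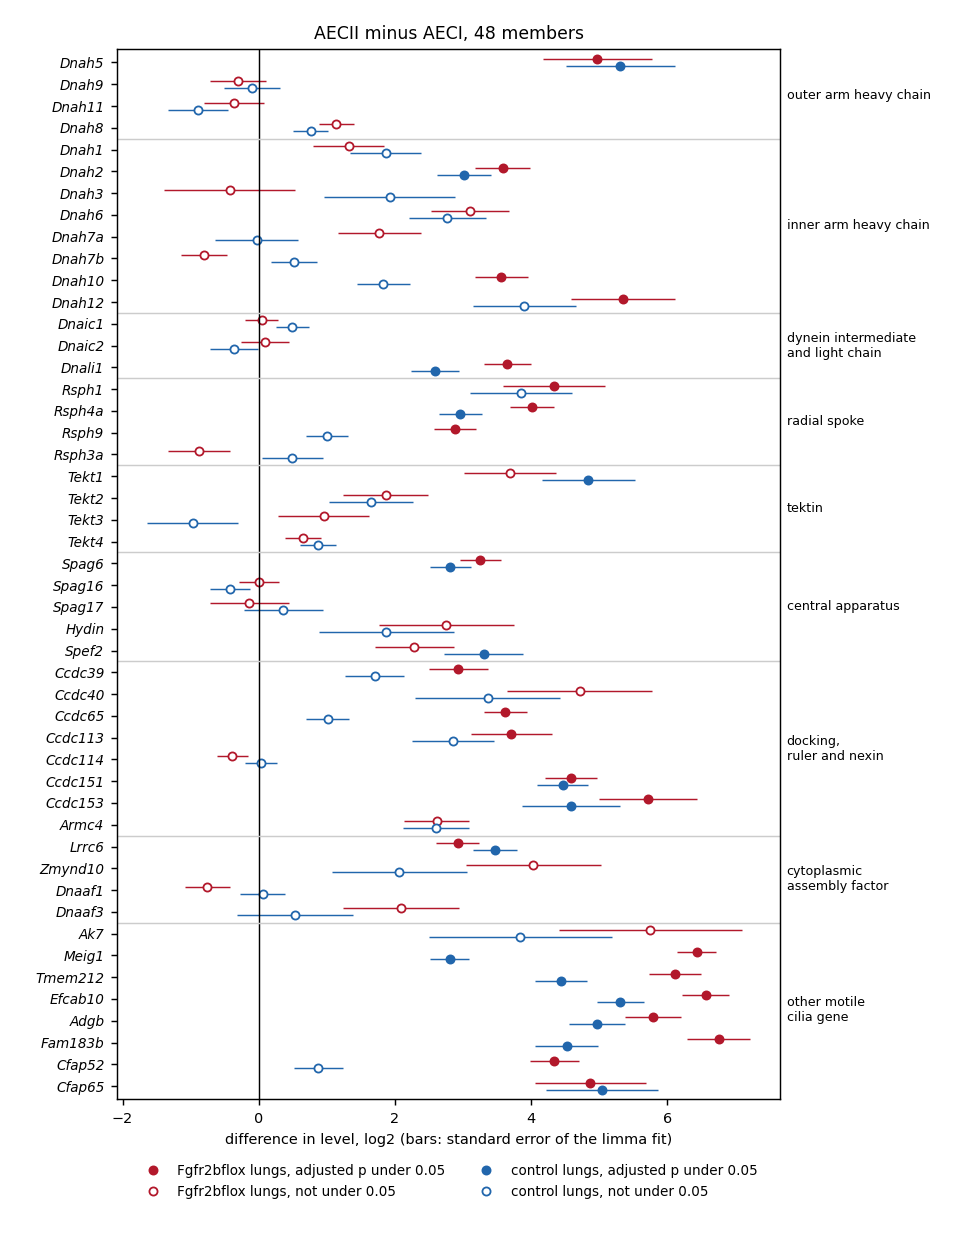
AECII minus AECI difference in level (log2, horizontal axis) of each member, with the standard error of the limma fit, in Fgfr2bflox lungs (red, upper point) and control lungs (blue, lower point). Filled points passed the adjusted p threshold of 0.05. The 22 filled red and 16 filled blue points all lie right of 0, and the largest red value is 6.75 for Fam183b.

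The set of other motile cilia genes had the largest differences: 7 of its 8 members were higher in AECII in Fgfr2bflox and 6 of 8 in control lungs, with medians of 5.95 and 4.48. Fam183b (Cfap144), a protein of the inside of doublet microtubules, read 9.28 and 9.16 in Fgfr2bflox AECII, 7.68 and 7.24 in control AECII, 2.27 and 2.67 in Fgfr2bflox AECI, and 2.29 and 3.59 in control AECI. No AECI array came within 3 log2 units of an AECII array. The AECII minus AECI difference was 6.75 (SE 0.46, 108-fold, adjusted p = 0.00513) in Fgfr2bflox and 4.52 (SE 0.46, 22.9-fold, adjusted p = 0.0118) in control lungs, the first being the largest among the members in Fgfr2bflox lungs.

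Efcab10, an EF-hand protein, read 9.45 and 9.04 in Fgfr2bflox AECII, 7.60 and 7.44 in control AECII, 2.94 and 2.43 in Fgfr2bflox AECI, and 2.56 and 1.88 in control AECI. Its differences were 6.56 (SE 0.34, adjusted p = 0.00465) in Fgfr2bflox and 5.31 (SE 0.34, adjusted p = 0.00524) in control lungs, and the populations did not overlap. Adgb (androglobin), a globin-domain protein, read 8.47 and 7.75 in Fgfr2bflox AECII, 7.54 and 6.82 in control AECII, 2.61 and 2.04 in Fgfr2bflox AECI, and 2.02 and 2.40 in control AECI. All 4 AECI arrays of Adgb lay under the lower quartile of spots. Tmem212, a transmembrane protein, differed by 6.11 and 4.44 in Fgfr2bflox and control lungs (adjusted p = 0.00465 and 0.0078), also with all AECI arrays under that quartile.

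Cfap65, a protein needed in the sperm flagellum, read 11.66 and 11.32 in Fgfr2bflox AECII and 11.01 and 10.71 in control AECII. In AECI it read 6.29 and 6.96 in Fgfr2bflox and 4.48 and 7.16 in control cells. Its difference was 4.87 (SE 0.82, adjusted p = 0.0433) and 5.04 (SE 0.82, adjusted p = 0.0352). Ak7, an adenylate kinase, read 9.96 and 9.65 in Fgfr2bflox AECII and 8.63 and 8.39 in control AECII, but its AECI arrays were far apart, at 2.41 and 5.70 in Fgfr2bflox and 6.32 and 3.02 in control cells. With that spread its differences of 5.75 and 3.84 (SE 1.34 each) did not pass the threshold (adjusted p = 0.078 and 0.221), although no AECI array reached an AECII array.

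Among the outer arm heavy chains, the motors of the outer arm, 1 of 4 was higher in AECII in each genotype. Dnah5 read 11.27 and 11.06 in Fgfr2bflox AECII, 9.51 and 9.45 in control AECII, 4.84 and 7.54 in Fgfr2bflox AECI, and 4.05 and 4.29 in control AECI. Its differences were 4.97 (SE 0.80, adjusted p = 0.0377) in Fgfr2bflox and 5.31 (SE 0.80, adjusted p = 0.0286) in control lungs. Dnah9, the heavy chain of the distal outer arm, read 7.30 and 6.89 in Fgfr2bflox AECII, 6.39 and 7.23 in control AECII, 6.99 and 7.79 in Fgfr2bflox AECI, and 7.01 and 6.79 in control AECI on its brightest probe. Its groups overlapped, and its differences were -0.30 (95% interval -1.30 to 0.70) and -0.10 (-1.10 to 0.91). Dnah11, the heavy chain of the proximal outer arm, also had values below 0, -0.36 and -0.90, and Dnah8, best known from sperm, had 1.14 and 0.76. Neither passed the threshold.

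Of 8 inner arm heavy chains, 3 were higher in AECII in Fgfr2bflox lungs (Dnah2, Dnah10 and Dnah12) and 1 in control lungs (Dnah2). The class medians were 2.43 in Fgfr2bflox and 1.89 in control lungs. Dnah12 had the largest differences, 5.35 (SE 0.76, adjusted p = 0.0277) and 3.90 (SE 0.76, adjusted p = 0.0551). Dnah6 read 9.17 and 8.71 in Fgfr2bflox AECII, 8.63 and 8.33 in control AECII, 5.21 and 6.48 in Fgfr2bflox AECI, and 5.08 and 6.33 in control AECI. Its populations did not overlap, but the differences of 3.10 and 2.77 (SE 0.57 each) stayed above the threshold (adjusted p = 0.0511 and 0.0628). Dnah7b read 7.93 and 8.65 in Fgfr2bflox AECII, 9.0 and 8.90 in control AECII, 9.19 and 9.01 in Fgfr2bflox AECI, and 8.71 and 8.16 in control AECI. On this probe, which carries no RefSeq accession, its difference was -0.81 in Fgfr2bflox and 0.52 in control lungs. Its 2 curated RefSeq probes gave 2.77 and 1.81 in Fgfr2bflox and 2.77 and 1.76 in control lungs, none past the threshold, and a predicted-transcript probe gave -0.12 and -1.58. Dnah7a and Dnah7b are close copies of each other, so signal on their probes cannot be given to one of them with certainty.

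Of the smaller dynein chains, Dnali1, an inner arm light intermediate chain, was higher in AECII in both genotypes, by 3.65 (SE 0.35, adjusted p = 0.011) in Fgfr2bflox and 2.59 (SE 0.35, adjusted p = 0.023) in control lungs. On their brightest probes the outer arm intermediate chains were nearly level. Dnaic1 read 8.04 and 7.71 in Fgfr2bflox AECII, 7.22 and 7.40 in control AECII, 7.94 and 7.74 in Fgfr2bflox AECI, and 6.85 and 6.78 in control AECI, a difference of 0.04 (95% interval -0.55 to 0.63) and 0.49 (-0.10 to 1.08). Dnaic2 read 5.54 and 5.01 in Fgfr2bflox AECII, 5.87 and 5.16 in control AECII, 5.07 and 5.30 in Fgfr2bflox AECI, and 5.71 and 6.04 in control AECI on its brightest probe. Its populations overlapped in both genotypes. That probe carries no RefSeq accession. The other probes of Dnaic2, both RefSeq, gave 1.11 and 4.82 in Fgfr2bflox and 1.58 and 2.50 in control lungs, of which 4.82 alone passed the threshold.

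Radial spokes carry signals between the central pair and the arms. All 3 spoke head members, Rsph1, Rsph4a and Rsph9, were higher in AECII in Fgfr2bflox lungs, by 4.33, 4.01 and 2.88, and Rsph4a also in control lungs, by 2.96 (SE 0.32, adjusted p = 0.0131). Rsph9 read 9.21 and 8.95 in Fgfr2bflox AECII, 7.93 and 7.91 in control AECII, 6.20 and 6.20 in Fgfr2bflox AECI, and 6.55 and 7.31 in control AECI. The stalk member Rsph3a read 8.67 and 8.73 in Fgfr2bflox AECII, 8.22 and 8.71 in control AECII, 9.17 and 9.99 in Fgfr2bflox AECI, and 8.49 and 7.46 in control AECI. Its difference of -0.88 (SE 0.45, adjusted p = 0.32) in Fgfr2bflox lungs was the lowest among the members there. This probe of Rsph3a carries no RefSeq accession. Its RefSeq probe gave 0.78 (SE 0.34) in Fgfr2bflox and -0.41 (SE 0.34) in control lungs, neither past the threshold.

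Tektins are filament proteins of the doublet microtubules. Tekt1 read 9.06 and 8.75 in Fgfr2bflox AECII, 7.81 and 7.31 in control AECII, 5.44 and 5.0 in Fgfr2bflox AECI, and 3.80 and 1.64 in control AECI. It was higher in AECII in control lungs, by 4.84 (SE 0.68, adjusted p = 0.0259), and stood at 3.69 (SE 0.68, adjusted p = 0.0519) in Fgfr2bflox lungs. Tekt4 read 9.91 and 9.63 in Fgfr2bflox AECII, 9.49 and 9.54 in control AECII, 9.11 and 9.12 in Fgfr2bflox AECI, and 8.40 and 8.89 in control AECI. The AECII arrays were above the AECI arrays, but by only 0.65 and 0.87. Tekt3 was dim on all arrays, at 3.83 and 2.37 in Fgfr2bflox AECII, 2.23 and 2.43 in control AECII, 2.13 and 2.16 in Fgfr2bflox AECI, and 4.15 and 2.45 in control AECI. Its -0.97 in control lungs was the lowest member value there.

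The central apparatus surrounds the central pair. Spag6, whose probe RefSeq names Spag6l, was higher in AECII by 3.25 (SE 0.30, adjusted p = 0.0107) in Fgfr2bflox and 2.81 (SE 0.30, adjusted p = 0.0131) in control lungs. Spef2 read 7.66 and 7.46 in Fgfr2bflox AECII, 6.56 and 6.61 in control AECII, 4.76 and 5.79 in Fgfr2bflox AECI, and 2.48 and 4.07 in control AECI, and passed the threshold in control lungs alone (3.30, adjusted p = 0.0433, against 2.28 and adjusted p = 0.09 in Fgfr2bflox lungs). Hydin read 8.11 and 7.68 in Fgfr2bflox AECII, 6.32 and 6.11 in control AECII, 3.61 and 6.68 in Fgfr2bflox AECI, and 3.62 and 5.07 in control AECI. Its AECI replicates were far apart and neither difference passed (2.75 and 1.87, SE 0.99 each). On their brightest probes Spag16 and Spag17 lay between -0.42 and 0.36 in both genotypes. The other 3 probes of Spag16, all RefSeq, gave 2.68 to 2.98 in Fgfr2bflox and 1.34 to 1.83 in control lungs, none past the threshold.

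Docking proteins fix the arms to the doublet, ruler proteins set their spacing, and nexin proteins link the doublets. In this class 5 of 8 members were higher in AECII in Fgfr2bflox lungs (Ccdc39, Ccdc65, Ccdc113, Ccdc151 and Ccdc153) and 2 in control lungs (Ccdc151 and Ccdc153), with medians of 3.67 and 2.72. Ccdc153, a nexin-dynein regulatory protein, read 11.86 and 11.36 in Fgfr2bflox AECII, 10.36 and 9.80 in control AECII, 4.76 and 7.05 in Fgfr2bflox AECI, and 5.34 and 5.67 in control AECI. Its difference was 5.71 (SE 0.72, adjusted p = 0.0207) and 4.58 (SE 0.72, adjusted p = 0.0324). Ccdc39, a ruler protein, read 10.86 and 10.45 in Fgfr2bflox AECII, 9.90 and 9.79 in control AECII, 8.10 and 7.35 in Fgfr2bflox AECI, and 8.66 and 7.64 in control AECI. The docking protein Ccdc114 read between 11.83 and 12.59 on all 8 arrays, with differences of -0.39 and 0.03, while its partner Ccdc151 differed by 4.58 and 4.46.

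Of the 4 cytoplasmic assembly factors, Lrrc6 was higher in AECII in both genotypes, by 2.92 (SE 0.32, adjusted p = 0.0147) in Fgfr2bflox and 3.47 (SE 0.32, adjusted p = 0.00932) in control lungs. Zmynd10 read 8.02 and 7.14 in Fgfr2bflox AECII, 6.29 and 6.13 in control AECII, 2.23 and 4.86 in Fgfr2bflox AECI, and 3.16 and 5.14 in control AECI, with differences of 4.03 (adjusted p = 0.0852) and 2.06 (adjusted p = 0.37). Dnaaf1 read 5.76 and 5.44 in Fgfr2bflox AECII, 6.34 and 5.84 in control AECII, 6.64 and 6.08 in Fgfr2bflox AECI, and 6.23 and 5.84 in control AECI. It was lower on both AECII arrays in Fgfr2bflox lungs, by a difference of -0.76 that did not pass (adjusted p = 0.254).

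Several members, some of them nearly level on the brightest probe, were read differently by their other probes. The 48 members were represented by 92 probes that carry their symbol in the array annotation, 26 of them by more than 1. Tested on its own among 43941 named probes, a step chosen after seeing the data, 35 of the 92 probes were higher in AECII in Fgfr2bflox lungs (1.02% of all probes) and 24 in control lungs (1% of all probes), and 0 were lower. The second probe of Dnah9, annotated to the same transcript as the first, differed by 3.53 (SE 0.31, adjusted p = 0.0111) in Fgfr2bflox and 2.16 (SE 0.31, adjusted p = 0.0276) in control lungs. The second probe of Spag17 gave 2.52 and 2.34 (limma adjusted p = 0.0265 and 0.0296), and the third of Dnaic2 4.82 and 2.50 (adjusted p = 0.0133 and 0.0542). For Ccdc40, a ruler protein, the second probe gave 5.57 and 5.25 (adjusted p = 0.00742 and 0.00872). Its brightest probe was not level, at 4.71 in Fgfr2bflox and 3.36 in control lungs (SE 1.06 each), but passed the threshold in neither.

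In all, 6 members called in neither comparison on their brightest probe had a dimmer probe called (Ccdc40, Dnah6, Dnah9, Dnaic2, Hydin and Spag17). The brightest probes of Ccdc114, Dnaic2, Dnah7b, Rsph3a, Spag16 and Dnah3 carry no RefSeq accession. The RefSeq probe of Ccdc114 differed by 1.72 in Fgfr2bflox and 1.55 in control lungs, neither past the threshold (adjusted p = 0.197 and 0.281). The opposite also occurred. The second probe of Fam183b gave 0.86 and 0.35, and that of Adgb 2.18 and 0.94, none past the threshold. Why probes of a gene differ was not tested.

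**Figure D3:**
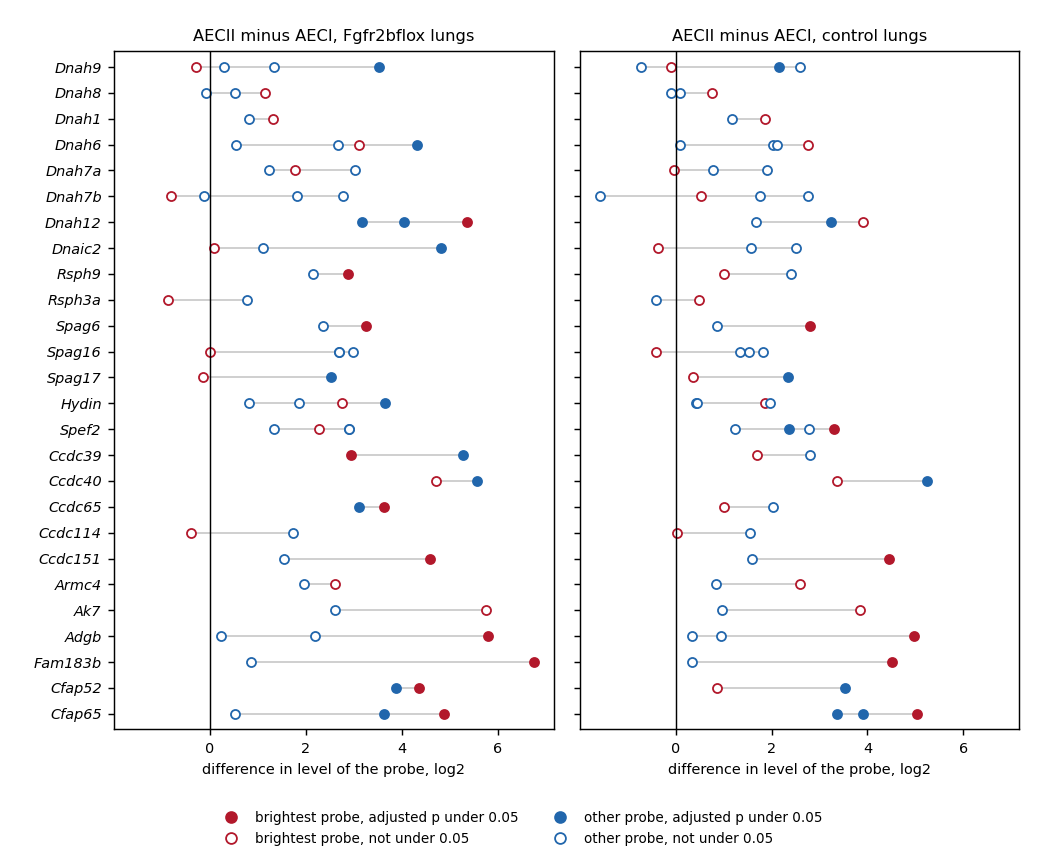
AECII minus AECI difference of each probe (log2, horizontal axis) for the 26 members with several probes, in Fgfr2bflox (left) and control lungs (right). Red points are the brightest probe of the member and blue points its others, gray lines join probes of a member, and filled points passed adjusted p of 0.05 over all 43941 probes. For Dnah9, Dnaic2 and Spag17 the red point lies near 0 and a blue point further right.

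The second question was how these genes differed between Fgfr2bflox and control AECII. No member passed the threshold in Fgfr2bflox against control AECII, where 0% of genes were called in either direction (limma). With a trend prior 0 members were called as well, and 0.0535% of genes were higher. The values nevertheless leaned one way: 42 of 48 members read higher in Fgfr2bflox AECII (55.3% of all genes), and for 34 both Fgfr2bflox arrays lay above both control arrays (27.3% of all genes), with the reverse for 3 (19.8%). The median member difference was 0.96, against 0.067 over all genes, and at an unadjusted p under 0.05 there were 15 members (8.24% of all genes). The smallest adjusted p among the members was 0.354. Members are not replicates of a genotype, and a shift between arrays that many members share would enter all these counts. Within Fgfr2bflox AECII alone, 44 of 48 members were higher on replicate 1 than on replicate 2. Without both arrays of male pattern the median was 0.82, and over all choices of 1 array left out it was between 0.82 and 1.29.

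**Figure D4:**
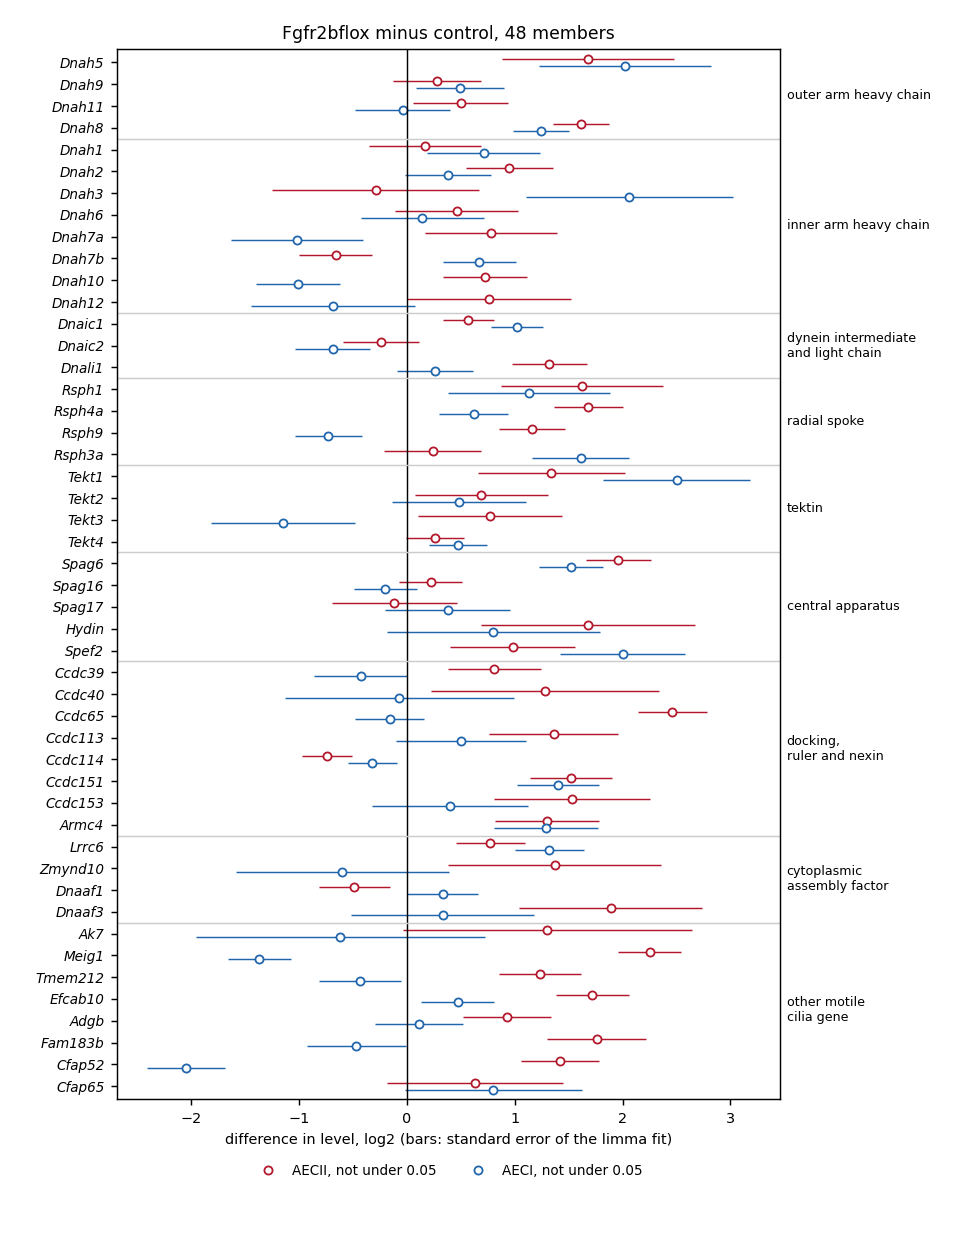
Fgfr2bflox minus control difference in level (log2, horizontal axis) of each member, with the standard error of the limma fit, in AECII (red, upper point) and AECI (blue, lower point). No point passed adjusted p of 0.05. In AECII 42 of 48 points lie right of 0, and in AECI 30 of 48.

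Ccdc65, a nexin-dynein regulatory protein, had the largest value in this comparison. It read 7.38 and 6.93 in Fgfr2bflox AECII against 4.64 and 4.75 in control AECII, a difference of 2.46 (SE 0.32, 95% interval 1.69 to 3.22, adjusted p = 0.354). Its second probe, annotated to the same transcript, gave 0.91 (SE 0.37, adjusted p = 0.631). In AECI it read 3.20 and 3.85 in Fgfr2bflox and 3.57 and 3.80 in control cells, and those groups overlapped. Meig1, a partner of Spag16, read 8.79 and 9.07 in Fgfr2bflox AECII and 6.66 and 6.70 in control AECII, a difference of 2.25 (SE 0.29, adjusted p = 0.354). Spag6 read 7.34 and 6.90 in Fgfr2bflox and 5.23 and 5.09 in control AECII, a difference of 1.96 (SE 0.30, adjusted p = 0.529). In each of these members the 2 Fgfr2bflox AECII arrays lay clear of the 2 control arrays by more than their own spread.

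By class, the median Fgfr2bflox minus control difference in AECII was 1.39 for radial spokes, 1.36 for other motile cilia genes, 1.33 for docking, ruler and nexin proteins, 1.07 for assembly factors, 1.06 for outer arm heavy chains, 0.98 for the central apparatus, 0.73 for tektins, 0.59 for inner arm heavy chains and 0.57 for the smaller dynein chains. The order of these medians was not tested. All 8 other motile cilia genes and 7 of 8 docking, ruler and nexin members had both Fgfr2bflox arrays above both control arrays (27.3% of all genes). The exception was Ccdc114, at 11.84 and 11.83 against 12.56 and 12.59, the lowest member value in this comparison (-0.74, SE 0.23, adjusted p = 0.562). That value comes from a probe without a RefSeq accession. The RefSeq probe of Ccdc114 gave a value of the opposite sign, 0.47 (SE 0.61), also not past the threshold.

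The same comparison in AECI gave no called member, where 0% of genes were called higher and 0.00411% lower (limma; with a trend prior 0 members and 0.165% of genes higher), and its values ran both ways. Of 48 members 30 read higher in Fgfr2bflox AECI (52.6% of all genes), 16 had both Fgfr2bflox arrays above both control arrays (21.2% of all genes) and 9 had both below (18.6%). The median was 0.38, with 13 members at an unadjusted p under 0.05 (12.4% of all genes) and a smallest adjusted p of 0.217. Tekt1 had the highest value, 2.50 (SE 0.68, adjusted p = 0.28), from the arrays given above. Cfap52, a protein of the inside of doublet microtubules, had the lowest, at 3.32 and 4.31 in Fgfr2bflox AECI against 5.76 and 5.98 in control AECI, a difference of -2.05 (SE 0.36, adjusted p = 0.217). In AECII the same probe read 8.24 and 8.08 in Fgfr2bflox and 6.81 and 6.67 in control cells. Its second probe gave an AECI value of the opposite sign, 0.36.

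The AECI replicates were less alike than those of AECII, over all genes as for the members. The median SD between replicates over all genes was 0.320 in Fgfr2bflox AECI and 0.348 in control AECI, against 0.228 in Fgfr2bflox AECII and 0.232 in control AECII, and over the members it was 0.405, 0.382, 0.287 and 0.192 in the same order. The SD between replicates was over 1 log2 unit for 8 members in Fgfr2bflox AECI and 10 in control AECI, against 3 in Fgfr2bflox AECII and 0 in control AECII. In Fgfr2bflox AECI, 7 of the 8 were higher on replicate 2, among them Ccdc40, Ak7, Hydin and Dnah5. Within Fgfr2bflox AECII, 44 of 48 members were higher on replicate 1 than on replicate 2. The source of these gaps was not tested.

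The third question was whether the genotype difference itself differed between the populations. No member passed the threshold (limma, 9 of 48 at an unadjusted p under 0.05 and 8.62% of all genes, 0% of genes called, 0 members also with a trend prior). The AECII minus AECI difference was larger in Fgfr2bflox than in control lungs for 33 of 48 members (51.8% of all genes), with a median of 0.51. Meig1 had the highest value, 3.62 (SE 0.41, 95% interval 2.63 to 4.62, unadjusted p = 9.41e-05, adjusted p = 0.538): in AECI it read 2.32 and 2.68 in Fgfr2bflox against 4.14 and 3.60 in control cells, the opposite order to AECII. Cfap52 followed with 3.47 and Ccdc65 with 2.62, each also at an adjusted p of 0.538, but the second probes of their transcripts gave 0.33 for Cfap52 and 1.08 for Ccdc65. Dnah3, an inner arm heavy chain, had the lowest value, -2.35 (SE 1.36, adjusted p = 0.651), with arrays far apart: 5.03 and 2.35 in Fgfr2bflox AECII, 3.74 and 4.21 in control AECII, 5.07 and 3.17 in Fgfr2bflox AECI, and 2.11 and 2.02 in control AECI.

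**Figure D5:**
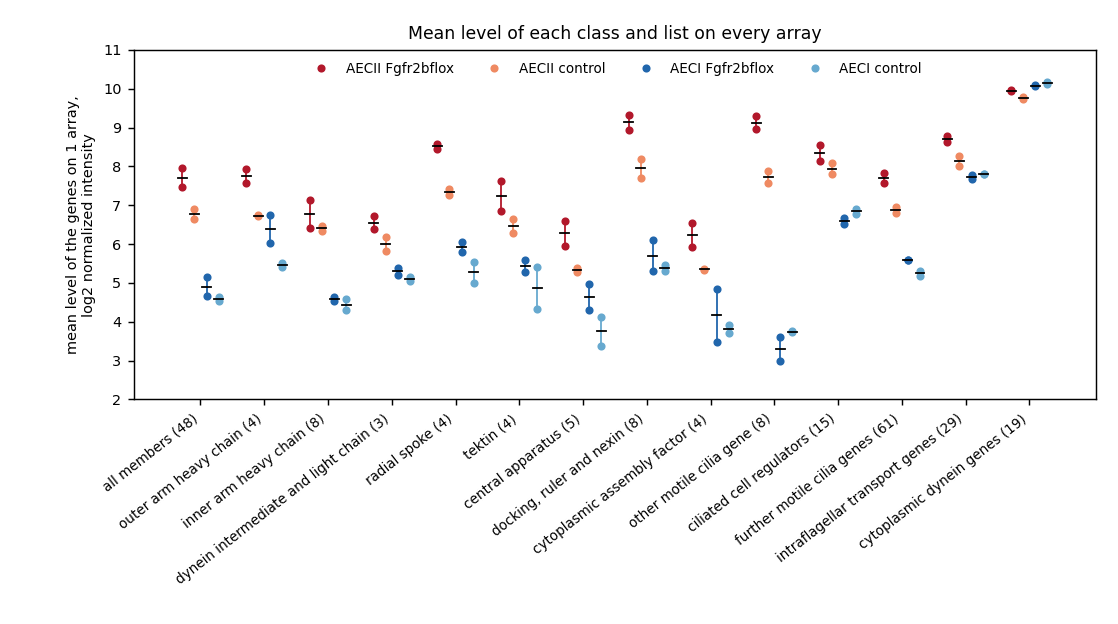
Mean level (log2 normalized intensity) of the genes of each structural class and of 4 further lists on every array, with 1 point per array, 2 points per group joined by a line, and a black bar at the group mean. Numbers of genes stand in brackets. For other motile cilia genes the AECII arrays lie between 7.56 and 9.30 and the AECI arrays between 2.99 and 3.76, while cytoplasmic dynein genes lie between 9.73 and 10.17 on all 8 arrays.

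Genes around the axoneme were set beside the members. Of all genes, 1.28% were called higher in AECII in Fgfr2bflox lungs and 1.3% in control lungs. Foxj1, the transcription factor at the head of the motile cilia program, read 11.60 and 10.72 in Fgfr2bflox AECII, 10.21 and 9.83 in control AECII, 7.06 and 7.48 in Fgfr2bflox AECI, and 5.19 and 5.88 in control AECI. It was higher in AECII by 3.89 (SE 0.41, adjusted p = 0.014) in Fgfr2bflox and 4.48 (SE 0.41, adjusted p = 0.00932) in control lungs. Fgfr2bflox arrays were above control arrays in both populations, by 1.14 in AECII (adjusted p = 0.571) and 1.74 in AECI (adjusted p = 0.26), neither past the threshold. Of 15 ciliated cell regulators found, 4 were higher in AECII in Fgfr2bflox lungs (Foxj1, Cdc20b, Ccno and Deup1, of which the last 3 serve the making of basal bodies) and 1, Foxj1, in control lungs, with medians of 1.22 and 0.32.

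Of 61 further motile cilia genes, 20 were higher and 1 lower in AECII in Fgfr2bflox lungs, and 11 higher and 0 lower in control lungs, with medians of 2.56 and 1.60. Of all genes, 1.28% were called higher and 1.27% lower in Fgfr2bflox lungs, and 1.3% and 1.53% in control lungs. Lrriq1, Lrrc23 and Nme5 had the smallest p-values, with differences of 4.31, 4.05 and 4.85 in Fgfr2bflox and 3.78, 4.41 and 3.90 in control lungs. In Fgfr2bflox against control AECII 50 of the 61 read higher (55.3% of all genes), with a median of 1.03 and 0 called. Genes of intraflagellar transport, which carries cargo along primary and motile cilia alike, gave 1 called gene of 29 in each genotype (Ift140 in Fgfr2bflox and Wdr19 in control lungs), with medians of 1.0 and 0.43. Cytoplasmic dynein and dynactin genes, which serve transport within the cell body, gave 0 of 19 in both (limma, smallest adjusted p 0.0868 and 0.101), with medians of 0.00 and -0.29. The lean in Fgfr2bflox against control AECII was not confined to motile cilia genes. There 25 of the 29 intraflagellar transport genes read higher, with a median of 0.74 and 0 called. So did 16 of the 19 cytoplasmic dynein and dynactin genes, with a median of 0.23 and 0 called.

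Markers of some other cells differed between AECII and AECI, and most erythroid markers read lower in Fgfr2bflox than in control cells. Of 19 club cell markers, genes of the secretory cells that neighbor ciliated cells in the airway, 7 were higher in AECII in each genotype. Of all genes, 1.28% were called higher in Fgfr2bflox and 1.3% in control lungs. For 3 of the 19, both AECII arrays lay below both AECI arrays in Fgfr2bflox lungs (26.7% of all genes), and for 0 in control lungs (22.1%). The mean level of the 19 was 9.33 to 9.61 in Fgfr2bflox AECII and 8.76 to 9.06 in control AECII. In AECI it was 8.26 to 8.27 in Fgfr2bflox and 7.54 to 7.68 in control cells. Scgb1a1, the defining club cell secretory protein, was among the 7 in each genotype, at 15.31 and 15.08 in Fgfr2bflox AECII, 14.55 and 14.58 in control AECII, 11.57 and 12.92 in Fgfr2bflox AECI, and 11.18 and 11.39 in control AECI. Of 11 mesothelial markers, 5 were lower in AECII in each genotype (1.27% of all genes in Fgfr2bflox and 1.53% in control lungs). Of 11 neuroendocrine markers 1 was lower in AECII in each genotype, and of 6 basal markers 0 were called. Of 9 blood and endothelial markers 1 was higher in AECII in Fgfr2bflox and 0 in control lungs. No club or mesothelial marker was called with genotype. With genotype, the median difference of 8 erythroid markers was -3.04 in AECII (0 called, limma) and -3.73 in AECI (1 called lower, Alas2), with mean levels of 7.18 to 7.79 in Fgfr2bflox AECII against 9.60 to 9.88 in control AECII, and of 6.19 to 7.0 in Fgfr2bflox AECI against 9.33 to 9.43 in control AECI. The part of airway cells, blood cells, litter or the sort in the values of the axoneme genes was not tested.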

How the data were processed

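RNA of FACS-isolated cells was amplified and labeled with Cy5 per the labels. The deposited values are log2 intensities that the authors had normalized between arrays, whose sorted values matched from array to array within 0.00557. The submitters' processing notes name limma. Scanner settings, background correction and detection calls are not given here. Precision is limited by how many arrays there are.

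Of 62976 spots, 43941 had a gene symbol, updated through RefSeq (33704 by accession, 463 by synonym). The probe of highest mean over 8 arrays stood for each of 24306 genes. The test was limma 3.58.1 in R 4.3.3, with 4 group means over all 8 arrays (4 residual and 2.26 prior degrees of freedom), Benjamini-Hochberg adjustment over all genes per contrast (5 contrasts), and 0.05 as the threshold. Intervals are at 95%. The fit was tested on simulated data with independent noise for each gene, which does not cover shifts that genes share. Tables were made with Python 3.11.15 and pandas 2.3.3, and plots with matplotlib 3.10.9.

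The members, lists and tests were chosen with earlier results of these data known. By rule, array values are given for the 2 brightest members of each class and for the highest and lowest member of each comparison, and of the lists for Foxj1 and up to 4 genes of smallest p. All other genes given with values, among them Efcab10, Adgb, Ccdc153, Spag6, Tmem212, Dnah12, Scgb1a1 and Cdhr3, were chosen after their values were seen. Alternatives covered the probe, scaling, dim values, the variance prior, array weights, the groups fitted, pairing and each array left out. No protein sequences were used.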

Additional observations from a re-analysis of the deposited data

How the results depend on the processing

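The counts of called members in the AECII against AECI comparisons (22 in Fgfr2bflox and 16 in control lungs) stayed within 1.5 times under other scalings, probe rules, filters, floors, robust priors and array weights. The members behind a count changed. With only genes above the median of spots, 7 of the 14 members called in both genotypes were tested, and these kept their calls. With the dimmest probe 9 of the 14 kept their call in each comparison, 4 did not pass and 1 was reversed. A trend prior gave 25 in control lungs (29 in Fgfr2bflox). Fits to only the groups compared, and fits without both arrays of male pattern (chosen after seeing the data), which have fewer residual degrees of freedom, gave 0 in each. With 1 array left out the counts ran between 0 and 22 in Fgfr2bflox and between 0 and 15 in control lungs. Genotype and interaction counts were 0 throughout, from a lowest of 0 to a highest of 0. With the replicate number as a block the counts were 19 in Fgfr2bflox and 12 in control lungs, and 0 for genotype and interaction. Of the 14 members called in both genotypes, 2 in Fgfr2bflox and 3 in control lungs no longer passed the threshold with the block. The titles do not say that a number marks a shared litter. Deviations of same-numbered arrays correlated between -0.103 and 0.040. With 2 arrays per group a small shared deviation would not be seen, so whether the numbers pair the samples cannot be decided here. Crossing the AECII control numbers as a replicate block, chosen after seeing the data, gave 17 and 9.

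The median member difference moved to 2.69 with the mean of all probes and 2.33 with the dimmest probe in Fgfr2bflox lungs. In control lungs it was 2.32 with the brightest RefSeq probe and 2.28 without both arrays of male pattern, both chosen after seeing the data. The interaction median was 0.81 with a floor at the lower quartile. With 1 array left out the medians ran between 2.81 and 3.42 (Fgfr2bflox lungs), 1.99 and 2.24 (control lungs), 0.82 and 1.29 (genotype in AECII), 0.20 and 0.54 (genotype in AECI) and 0.26 and 0.81 (interaction). The dimmest probe reversed Spag6 (read there from a further Spag6l probe that is not among the 92 member probes; -0.64 in Fgfr2bflox and -0.79 in control lungs for AECII against AECI, -0.28 for genotype in AECI) and Cfap52 (0.36 for genotype in AECI). The cause was not tested. Probes near the lower quartile of spots limit what can be said of AECI.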

Other observations

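Some genes of the motile cilia lists stood outside the common pattern. Of the 61 further motile cilia genes, 8 had both AECII arrays below both AECI arrays in Fgfr2bflox lungs (26.7% of all genes). In control lungs 4 did (22.1%). Cdhr3, a cadherin-related gene of ciliated airway cells in human, was the 1 gene of the 61 that was called lower in AECII. It read 7.20 and 7.38 in Fgfr2bflox AECII, 7.55 and 7.35 in control AECII, 8.62 and 9.35 in Fgfr2bflox AECI, and 8.0 and 7.95 in control AECI. The difference was -1.70 (SE 0.30, limma adjusted p = 0.0497) in Fgfr2bflox and -0.52 (adjusted p = 0.474) in control lungs. Mcidas, an early regulator of the multiciliated fate, read 13.89 to 14.41 on all 8 arrays, with differences of -0.18 and 0.21, neither past the threshold. Whether its probe reads Mcidas alone was not tested.

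Across the 48 members, the AECII minus AECI differences in Fgfr2bflox and in control lungs, which share no array, correlated with r = 0.84, against r = 0.50 across all 24306 genes. Genes are not independent replicates, the same probes stand in both comparisons, and no p-value is given.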
